A study of Homo sapiens with 10 samples.

Results

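Binding of MYC was examined at 10 genes of the RNA polymerase I machinery, POLR1A, POLR1B, POLR1C, POLR1D, POLR1E, UBTF, RRN3, TCOF1, TAF1D and TAF1C, out of 19974 protein-coding genes on chromosomes 1 to 22 and X. The genes were chosen by name, as was the wider list below, with earlier results of these data known. A gene counted as bound when the summit of a peak, the base of highest signal, lay inside the gene or within 5 kb of its ends. U2OS is a human osteosarcoma line. All groups used derivatives in which MYC had been knocked out and a FLAG-tagged MYC could be switched on with doxycycline (1 µg/mL for 24 h), namely the mutant 3A, the mutant 7A or wild type (WT), each with 2 libraries immunoprecipitated (IP) with anti-FLAG. The labels do not give the residues changed in 3A and 7A, nor whether a line is 1 clone. The series also holds 2 uninduced WT IP libraries and 2 WT inputs, for which no peak list was used here, so no peak could be compared with the uninduced level. Every sample was mixed with 10% mouse NIH3T3 cells as a reference genome. Each induced protein has 1 deposited peak list (845 peaks for 3A, 64 for 7A and 4749 for WT). No value below therefore has a replicate spread or a test between proteins, and library depth is unknown.

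RNA polymerase I transcribes the ribosomal RNA genes in the nucleolus. It is recruited to their promoter by UBTF, which binds and bends the DNA, and by selectivity factor 1 (SL1), a complex of TBP and TAF1 subunits, and RRN3 links the enzyme to SL1. MYC is known to promote ribosome production, and with its partner MAX it binds the E-box CACGTG and, less tightly, variants such as CACGCG.

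No member had a summit in the 3A list, none had one in the 7A list, and 8 of 10 had one in the WT list. Among all protein-coding genes, 4.83% had a 3A summit, 0.225% a 7A summit and 23.8% a WT summit under the same rule. The WT share of the members was 80.0% (exact binomial 95% interval 44.4 to 97.5%). A count of 0 of 10 allows a share of up to 30%, so the absence of 3A and 7A summits cannot be told from the general shares. These intervals and limits cover counting error only, and the 10 genes are not a random sample of genes. Long genes collect more summits under this rule. Counting only summits within 1 kb of either gene end, 0 of 10 members were bound by 3A, 0 by 7A and 7 by WT, where all protein-coding genes gave 3.51%, 0.125% and 16.8% in that order of proteins.

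**Figure D1:**
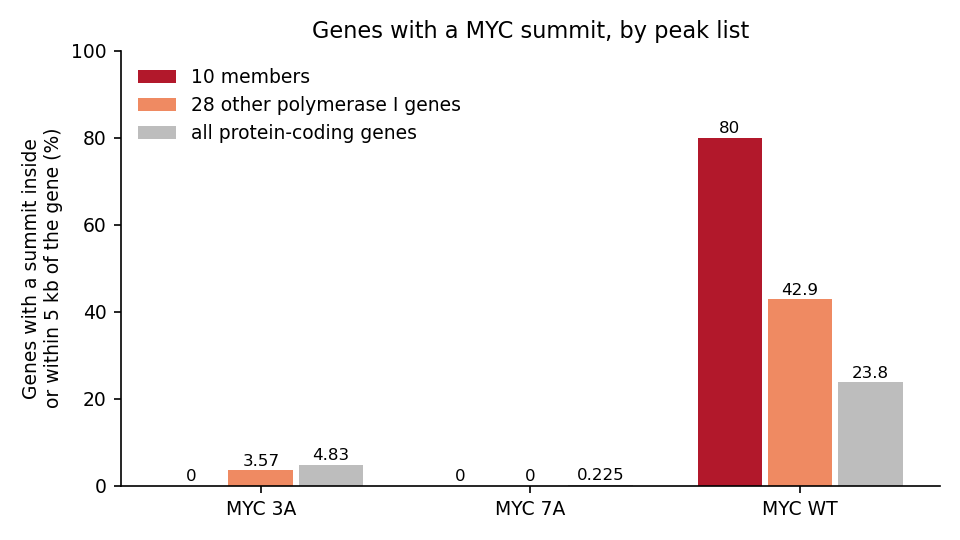
Percentage of genes with a summit inside the gene or within 5 kb of its ends, in the 3A, 7A and WT peak lists, for the 10 members, 28 other polymerase I genes and all 19974 protein-coding genes. The members stand at 0% in both mutant lists and at 80.0% in the WT list.

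Promoter sequence was available for 8 of the 10 members, in 12 windows that run from 250 bases before an annotated start to 50 after it (RefSeq, GRCh38.p14). POLR1E and TCOF1 had no entry. The stretches below run from 170 bases before the start to 30 bases from it. They show 5 members with a WT peak over the start and RRN3, which had no peak in any list. Capitals mark CACGCG, or CGCGTG where it lies on the opposite strand. POLR1B is shown at the second of its starts, the one nearest its summit.
POLR1A, chr2:86105857-86106056, minus strand: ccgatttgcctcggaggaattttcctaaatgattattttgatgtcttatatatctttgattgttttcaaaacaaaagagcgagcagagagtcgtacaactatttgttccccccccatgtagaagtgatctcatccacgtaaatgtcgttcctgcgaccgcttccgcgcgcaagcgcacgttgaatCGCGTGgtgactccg
POLR1B, chr2:112542295-112542494, plus strand: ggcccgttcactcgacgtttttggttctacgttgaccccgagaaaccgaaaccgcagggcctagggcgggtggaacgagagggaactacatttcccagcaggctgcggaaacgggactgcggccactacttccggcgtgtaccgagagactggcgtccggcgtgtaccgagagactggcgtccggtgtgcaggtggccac
POLR1C, chr6:43516919-43517118, plus strand: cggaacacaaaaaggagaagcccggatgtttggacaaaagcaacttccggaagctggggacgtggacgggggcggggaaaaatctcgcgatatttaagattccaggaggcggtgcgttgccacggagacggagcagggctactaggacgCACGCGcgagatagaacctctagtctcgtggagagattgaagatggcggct
TAF1C, chr16:84187028-84187227, minus strand: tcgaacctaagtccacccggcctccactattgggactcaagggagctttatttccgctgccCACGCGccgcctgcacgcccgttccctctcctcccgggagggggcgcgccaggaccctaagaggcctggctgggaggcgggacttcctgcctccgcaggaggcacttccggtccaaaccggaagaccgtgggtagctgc
TAF1D, chr11:93741466-93741665, minus strand: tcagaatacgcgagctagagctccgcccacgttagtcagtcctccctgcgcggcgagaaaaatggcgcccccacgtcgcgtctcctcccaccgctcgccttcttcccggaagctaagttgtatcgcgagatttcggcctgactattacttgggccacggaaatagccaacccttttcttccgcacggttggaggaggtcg
RRN3, chr16:15094306-15094505, minus strand: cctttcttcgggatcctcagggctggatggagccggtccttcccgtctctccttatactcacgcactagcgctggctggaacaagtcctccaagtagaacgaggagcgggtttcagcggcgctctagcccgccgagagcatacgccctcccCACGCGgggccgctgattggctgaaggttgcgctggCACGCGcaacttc

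CACGTG was absent from all 12 windows of the 8 members on both strands. It was held by 10.9% of 15812 protein-coding genes with a window, so a count of 0 of 8 cannot be told from that share. CACGCG occurred in 6 of the 8 members, POLR1A, POLR1C, POLR1D, UBTF, RRN3 and TAF1C, against 18.1% of those genes. The matches lay close to the start in POLR1A (positions 16 to 21), POLR1C (-21 to -16) and UBTF (-15 to -10), where 1 is the first base of the annotated transcript. RRN3 carried it at -19 to -14 and at 18 to 23 of its first start, and TAF1C at -109 to -104. The letters in the member windows and the WT peaks coincided in some members and not in others. In POLR1A, POLR1C and TAF1C, the window with CACGCG met the WT peak. RRN3 and POLR1D held CACGCG and had no WT peak. The UBTF window with the match did not meet the UBTF peak. POLR1B and TAF1D held neither CACGCG nor CACGTG in their windows and had a WT peak. The WT summits of the 6 bound members with an annotated start lay 55 to 1160 bp downstream of the nearest one. All of these summits were beyond the end of the windows. Sequence at the summits was not searched, so whether these peaks lack CACGCG or CACGTG cannot be told. Over all protein-coding windows, CACGCG was found in 28.6% of 3501 that met a WT peak and in 11.5% of 18631 that did not, and CACGTG in 17.4% and 6.65%. Windows that met a WT peak were richer in CpG (median 30 per window) than all windows (21), and the member windows had a median of 27.5. The part of base composition in these shares was not tested. Of the other variants, CACGAG occurred in 1 of 8 members, POLR1C, against 9.63% of genes, CATGTG in 1, POLR1B, against 11.5%, and CATGCG in 0, against 10.3%, counts too small to tell from those shares. Any CANNTG was held by 3 of 8 members, against 70.5% of genes. CANNTG includes CACGTG and CATGTG, and all motifs were sought on both strands.

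The 2 largest subunits, which together form the catalytic centre, had WT peaks of unequal strength. Fold enrichment is the authors' ratio of IP signal to local background at the summit, and it is used to rank peaks within 1 list. POLR1B, the second-largest subunit, had a fold of 11.4 in a peak of 1139 bp (chr2:112541893-112543031), which ranked 205 of 4749 WT peaks. POLR1A, the largest subunit, had a fold of 5.56 in a peak of 1161 bp (chr2:86105383-86106543), higher than 58.6% of WT peaks. The POLR1B peak was thus the strongest of the 8 members and the POLR1A peak was in the middle of the list.

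POLR1C and POLR1D form the assembly platform of the enzyme, which is shared with RNA polymerase III, and only POLR1C was bound. POLR1C had a WT fold of 5.91 (chr6:43516806-43517501), with its summit 55 bp downstream of the start. POLR1D (chr13:27620743-27667411) had no summit in any list, and the nearest WT summit was 196 kb away. POLR1E, the subunit equivalent to yeast A49, had a WT fold of 6.07 (chr9:37485407-37486360). Its summit lay 13 bp inside the lower-coordinate end of the gene, whose strand was not available here.

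Both SL1 subunits among the members were bound by WT. TAF1D had a fold of 6.09 (chr11:93740736-93741682), higher than 67.0% of WT peaks. TAF1C had a fold of 4.22 (chr16:84186683-84187268), higher than 27.2% of WT peaks and the weakest of the 8. The TAF1D summit lay 338 bp downstream of the start and the TAF1C summit 114 bp downstream.

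Of the 6 bound members with an annotated start, UBTF alone had a peak that did not cover one. Its WT peak (chr17:44218321-44218688) was 368 bp wide, the narrowest of the 8, with a fold of 5.83. The summit was inside the gene, 1160 bp downstream of the nearer of 2 starts. It was 2789 bp from the nearer of the 2 ends of the gene span, so UBTF drops out under the 1 kb rule. RRN3 (chr16:15060022-15094335) had no summit in any list, and the nearest WT summit was 695 kb away. RRN3 has 4 annotated pseudogene copies, and none of them had a summit either. How the authors treated reads that map to several places is not given, and its part in the missing peak was not tested.

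TCOF1 encodes treacle, a nucleolar protein that acts with UBTF in ribosomal RNA transcription and is mutated in Treacher Collins syndrome, as POLR1C and POLR1D can be. Its WT fold of 7.95 (chr5:150357603-150358481) was the second highest of the members, above 84.7% of WT peaks. The summit lay 373 bp inside the lower-coordinate end of the gene, whose strand was not available here.

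**Figure D2:**
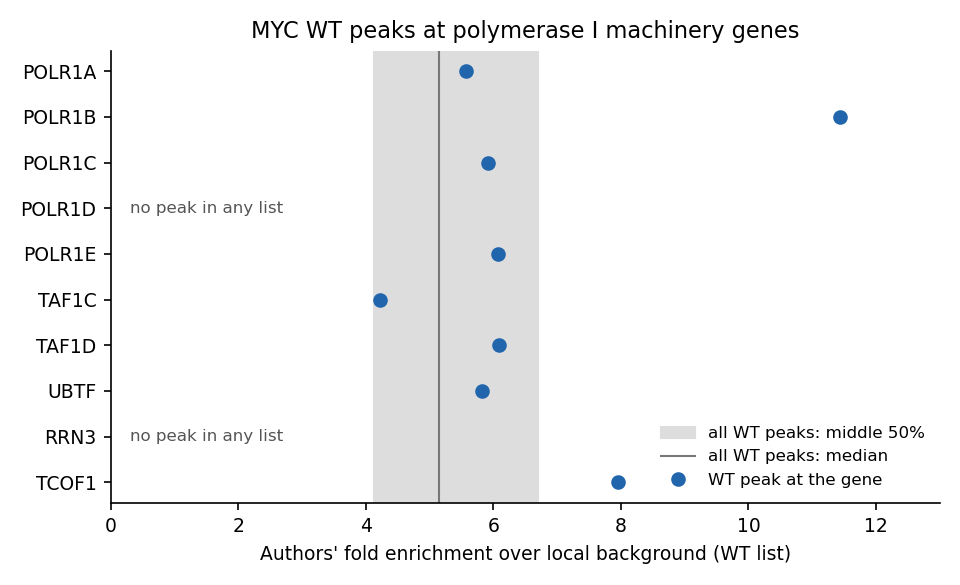
The authors' fold enrichment of the WT peak at each member (points), with the median (line) and middle 50% (band) of all 4749 WT peaks. POLR1B at 11.4 and TCOF1 at 7.95 lie above the band, 6 members lie inside it, and POLR1D and RRN3 have no peak.

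The 8 member folds had a median of 5.99, against 5.14 for all WT peaks, and the middle 50% of the whole list ran from 4.13 to 6.70. Each bound member had 1 WT peak, and all 8 summits lay inside the gene. In the 6 with an annotated start, the summit was 55 to 1160 bp downstream of the nearest one, with a median of 136 bp.

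**Figure D3:**
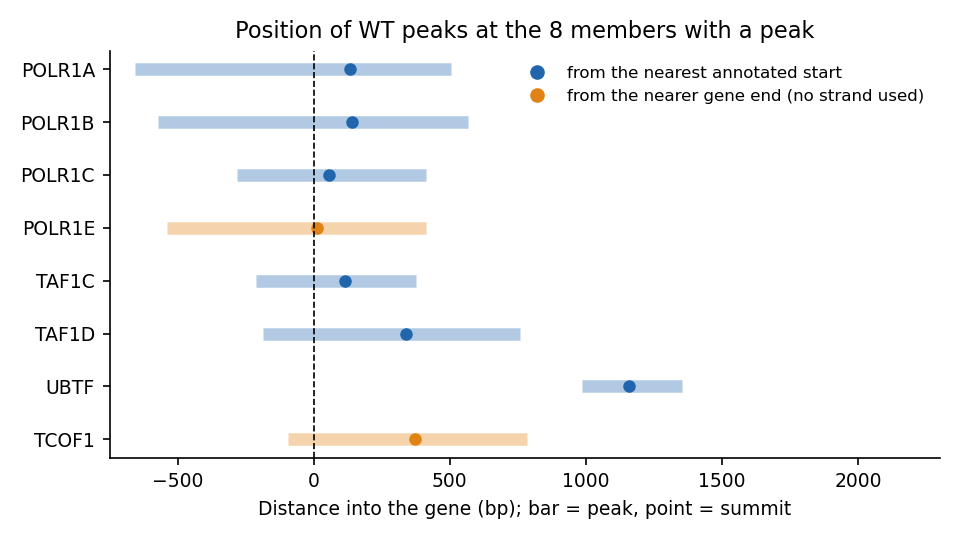
WT peaks (bars) and summits (points) at the 8 bound members, in bp into the gene from the nearest annotated start, or for POLR1E and TCOF1 from the nearer gene end. The peaks cover the start or gene end in 7 members, and the UBTF peak, with its summit at 1160 bp, does not.

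The signal behind these folds was recovered from the deposited fold and p-value as a whole-number IP pileup, the number of overlapping reads or fragments at the summit, and a local background. POLR1B had a pileup of 211 over a background of 17.5. POLR1C and POLR1E had the next highest pileups, 142 and 140, over the highest backgrounds of the members, 23.2 and 22.2. TAF1D followed with 114 over 17.9 and TCOF1 with 103 over 12.1. Ranked by pileup, POLR1C and POLR1E therefore stood above TCOF1, although their folds were lower. POLR1A had 96 over 16.4, UBTF 78 over 12.6 and TAF1C 59 over 13.2. The median pileup of all WT peaks was 72.0. Only TAF1C among the 8 was below it.

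**Figure D4:**
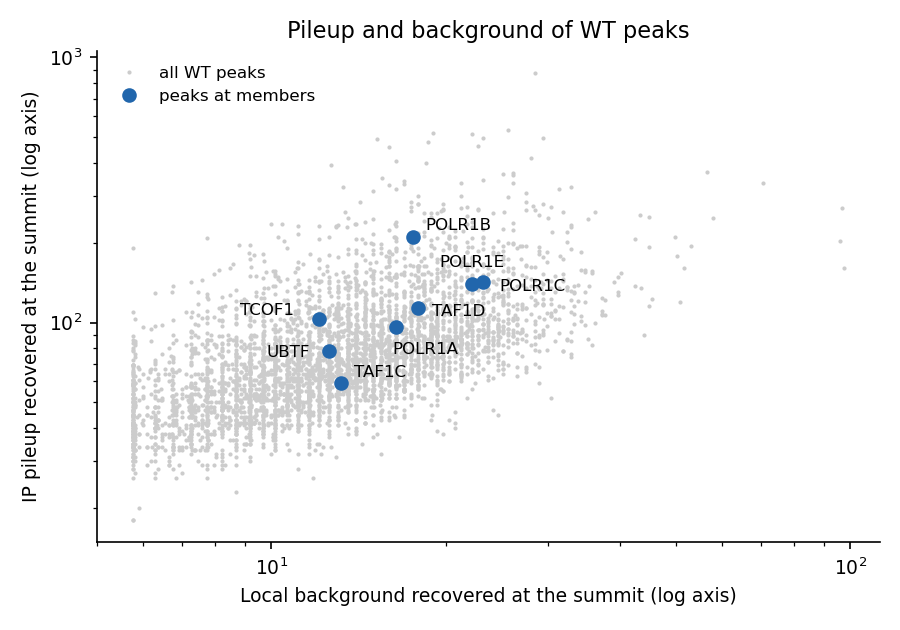
IP pileup against local background at the summits of all WT peaks (grey) and of the 8 member peaks (blue), both on log axes. POLR1B has the highest member pileup, 211, and POLR1C and POLR1E have the highest member backgrounds, 23.2 and 22.2.

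None of the 8 member WT peaks overlapped a 3A peak and none overlapped a 7A peak, where 15.1% of all WT peaks overlapped a 3A peak and 1.03% a 7A peak. A count of 0 of 8 allows a share of up to 37.5%, so neither count can be told from the whole list. The share with a 3A peak varied with WT strength. With the WT list split into 10 groups by fold, 39.2% of the peaks in the group of POLR1B had a 3A peak, 26.9% in the group of TCOF1 and 10.5 to 14.1% in the groups of the other 6. The lowest pileup in the 3A list was 32, and 3A signal under the authors' threshold would not be seen at these genes. The nearest 3A summits lay 49.4 kb from TCOF1, 134 kb from UBTF, 163 kb from POLR1C and 185 kb from POLR1B, and farther from the other members.

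Several member peaks also lay close to another protein-coding gene, so the peak cannot be assigned to one of them. POLR1A and PTCD3, a mitochondrial pentatricopeptide protein gene, are 349 bp apart and are transcribed away from each other, and the summit was 132 bp downstream of the POLR1A start and 481 bp upstream of the PTCD3 start. POLR1C and YIPF3 are 163 bp apart, and the summit was 218 bp upstream of the YIPF3 start. TAF1D and C11orf54 are 177 bp apart, with the summit 515 bp upstream of the C11orf54 start. In these 3 pairs the summit was inside the polymerase I gene. The POLR1B summit lay 866 bp from the downstream end of TTL, the TAF1C summit 4214 bp from the start of ADAD2, and the UBTF summit inside the long non-coding gene ATXN7L3-AS1, which covers UBTF. POLR1E and TCOF1 had no other protein-coding gene within 5 kb of the summit. The remaining neighbours there were non-coding: LOC105373562, 393 bp from the POLR1B summit, LOC105378226, 650 bp from the TCOF1 summit, LOC124907852, 4433 bp from the POLR1A summit, and the pseudogene RPL21P83, 4428 bp from the POLR1E summit.

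Beyond the 10 members, 28 other genes of polymerase I and its cofactors were examined. The 3A list had a summit at 1 of them (3.57%), the 7A list at 0, and the WT list at 12 (42.9%, exact binomial 95% interval 24.5 to 62.8%), to be read against the same shares of all genes, 4.83%, 0.225% and 23.8%. Within 1 kb of a gene end the counts were 1, 0 and 11 of 28, where all protein-coding genes gave 3.51%, 0.125% and 16.8%. The gene bound by both was HEATR1, which takes part in early ribosome assembly and is needed for ribosomal RNA transcription. Its 3A fold was 4.51, higher than 87.9% of 3A peaks, and its WT fold was 9.09, higher than 90.1% of WT peaks.

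The strongest WT peaks of this wider list were at cofactors and not at enzyme subunits. NOLC1, a nucleolar phosphoprotein that binds snoRNPs and polymerase I, had a fold of 13.3, and UTP4, a member of the complex that couples transcription to early processing, had 13.3 as well. WDR43 of the same complex had 10.8 and MYBBP1A, a nucleolar regulator, 10.4. LYAR had 9.39, TOP1, which relieves torsion ahead of the polymerase, 8.47 and PWP1 6.04. Most of these summits also had another gene within 5 kb. DERPC and CHTF8 were 86 bp from the UTP4 summit, ZBTB49 167 bp from that of LYAR, GGT6 818 bp from that of MYBBP1A and PPRC1 2420 bp from that of NOLC1. The TOP1 summit was 3095 bp from the long non-coding gene LOC100128988 and 4100 bp from the pseudogene RNU2-52P. WDR43, PWP1 and HEATR1 had no such neighbour.

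Of the 8 subunits named POLR1, WT bound 5, which adds POLR1G (fold 8.33, summit 5 bp upstream of the start) to the 4 above. That summit was also 278 bp upstream of the start of PPP1R13L and 695 bp from the end of ERCC1, which overlaps POLR1G. POLR1D, POLR1F and POLR1H had no summit in any list. Of 5 subunits shared with other polymerases, WT bound POLR2H, with folds of 3.57 and 4.45 in 2 peaks, and POLR2L. The first POLR2H summit was 133 bp and the second 82 bp downstream of the nearest POLR2H start. In the same order, they lay 238 and 1838 bp upstream of the start of CLCN2, and 532 and 2132 bp from the long non-coding gene LOC124906311. POLR2L was counted through a peak whose summit (5.77) lay 1603 bp upstream of the POLR2L start and 27 bp downstream of the start of TSPAN4. Of the 5 SL1 proteins, WT bound TAF1B, TAF1C and TAF1D. TAF1B had a peak at its start (4.79) and another 71317 bp downstream of it (6.22). TAF1A and TBP had none. The 3A and 7A counts were 0 in all 3 of these groups. Each count is to be read against the shares of all protein-coding genes, 4.83% for 3A, 0.225% for 7A and 23.8% for WT, and with 5 to 8 genes a count of 0 cannot be told from the 3A and 7A shares.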

How the data were processed

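The labels put 10 libraries in 6 groups, and peaks of the 3 induced IP groups were used. Tools listed in the submitters' processing notes, with no versions, are MACS2, Picard, SAMtools, Bowtie2 and cutadapt, and the builds listed are hg38, hg19 and mm10. The sources used here do not say how the 2 IP libraries were merged, which control served or where the mouse reads entered. Per the labels, chromatin was sheared to 200 to 500 bp. Each deposited list gives the authors' fold enrichment (a ratio), −log10 p-value and −log10 q-value per peak, and a deposited score that was not used. No spike-in scaling was done here, and whether the authors scaled by the mouse reads is not given.

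Coordinates were read as hg38 and counted from 1. Gene spans and promoter windows came from RefSeq tables (GRCh38.p14), the starts and strands from the promoter table. Members and lists were chosen with earlier results of these data known. All members are named, as are wider-list genes with a summit and neighbours within 5 kb of one. Pileup n and background b solve fold = (n + 1)/(b + 1), where 1 is a pseudocount, with p the Poisson tail above n. The p recomputed from n and b missed the deposited one by at most 0.02 of the change that 1 more read makes in 845 of 845 3A, 63 of 64 7A and 4749 of 4749 WT peaks. On 2000 peaks simulated with these same formulas, 100% of pileups were recovered, which checks the solving step only. Intervals are exact Clopper-Pearson, and the limit for a count of 0 is 3 counts. Peaks overlapped if they shared at least 1 bp. Windows, q thresholds and overlap rules were varied. Python 3.11.15, numpy 2.4.6, pandas 2.3.3, scipy 1.17.1, statsmodels 0.14.6 and matplotlib 3.10.9 were used.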

Additional observations from a re-analysis of the deposited data

How the results depend on the processing

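The counts of members with a summit stayed at 0 for 3A, 0 for 7A and 7 to 8 for WT over summits inside the gene only, windows of 1 kb and 10 kb, gene ends alone, a −log10 q of at least 5 or 10, and any base of the peak. The count of 7, at gene ends alone, leaves out UBTF. Overlap of the member WT peaks with 3A and 7A stayed at 0 under the 5 other overlap and q rules tried for each. In the wider list, gene ends alone gave 1, 0 and 11 and a −log10 q of at least 10 gave 1, 0 and 12 for 3A, 7A and WT. The median position of the 8 member peaks in the WT list was above 65.3% of peaks by fold and above 82.1% by −log10 q. The cause was not tested. No paired analysis was possible because each protein has 1 peak list and the replicate numbers belong to libraries that have no list of their own, and for the same reason no replicate could be left out. The depth of the libraries is unknown and limits what the mutant lists can show.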

Other observations

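The genes that polymerase I transcribes were looked at as well. None of the 12 annotated 45S, 28S, 18S and 5.8S ribosomal RNA genes on chromosome 21 had a summit within 5 kb in the 3A, 7A or WT list. The 28S, 18S and 5.8S genes lie inside the 45S genes, so the 12 are not separate sites. These genes are repeated many times in the genome, and how reads from repeats were handled is not given, so nothing can be said of binding there. TAF1D carries 8 snoRNA genes, and none of them had a summit of any list inside or within 5 kb, the TAF1D peak being at the other end of the gene. The 8 lie inside 1 gene, so they are not separate sites. None of the 10 UBTF-like genes and pseudogenes had a summit. How reads that map to several places were treated is not given for these copies either. No share over all snoRNA genes or all pseudogenes was computed, so these counts of 0 have nothing to be read against.

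Beyond 5 kb from the members, a few sites were named after their values were seen. TCOF1 lies near RPS14, a ribosomal protein gene, where the 3A fold was 3.83 with the summit 49.4 kb from TCOF1 and the WT fold was 5.98 with the summit 49.3 kb away. Near POLR1C, a site without a protein-coding gene within 5 kb had a 3A fold of 4.29 and a 7A fold of 3.28, with summits 163 kb from the gene, and it also overlapped a WT peak. The WT summit nearest to the unbound POLR1D, 196 kb away, had a fold of 13.8 and lay at GTF3A, which encodes a transcription factor of RNA polymerase III.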
